A study of Mus musculus with 6 samples.

Results

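The thick filament and M-band genes of HL-1 cells, a contractile line derived from mouse atrial cardiomyocytes, were examined after silencing of Malat1, a long noncoding RNA of the nucleus. They were chosen by name, as 10 of the 21269 genes of the deposited table: the cardiac myosin heavy chains Myh6 and Myh7, the myosin light chains Myl2, Myl7, Myl3, and Myl4, the myosin-binding proteins Mybpc3 and Mybphl, and the myomesins Myom1 and Myom2. All 10 had a row in the table. Cells grown with norepinephrine were plated 24 hours ahead of transfection with an LNA-gapmer at 50 nM, a short DNA strand with locked ends that directs RNase H to a matching RNA, and were collected 48 hours after it. The gapmer was directed at Malat1 (LNA Malat1) or was a control (LNA Control), with 3 libraries of total RNA in each group. HL-1 is 1 cell line, and no library of heart tissue was compared with it here.

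The thick filament of the sarcomere is a bundle of myosin, in which each heavy chain carries a motor head and binds a regulatory and an essential light chain. Myosin-binding proteins lie along the filament, and myomesins tie neighbouring filaments together at the M-band in the middle of the sarcomere. Atrial and ventricular muscle use different light chains, and the mouse heart moves from the beta heavy chain to the alpha heavy chain around birth, so that the forms in use are read as markers of chamber and of maturation.

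Values are normalized counts, which are the reads on a gene divided by a factor for the library and rounded to whole numbers. Their library totals ran from 4831007 to 4921406 in LNA Control and from 4758777 to 4762957 in LNA Malat1, and rounding steps put the reads on genes at 4512387 to 5594306 per library. The LNA Control libraries held 5051, 5197, and 4369 normalized counts of Malat1, compared with 2833, 2792, and 2732 in LNA Malat1, and its log2 fold change was -0.80 (SE 0.07, adjusted p = 7.5e-06, limma). LNA Malat1 replicates 1 and 3 differed by less than the sampling noise over all genes compared (chi-square of 0.949 per gene). Replicates 1 and 2 of LNA Malat1 differed by about the sampling noise (1.01 per gene) and replicates 2 and 3 by more (1.16). The LNA Control pairs gave 1.77 to 4.18. The closest pair, replicates 1 and 3, was counted as 1 sample in the mean ± SD (n = 2 for LNA Malat1), while the test across genes used all 6 libraries. The labelled cell type was checked on 7 cardiomyocyte genes besides Myh6. Their sum per library was 5893 to 6337 in LNA Control and 5718 to 5884 in LNA Malat1, without overlap. Tnnt2, the cardiac troponin T, had 647 to 663 in LNA Control and 710 to 746 in LNA Malat1. It rose by a log2 fold change of 0.15 (adjusted p = 0.0342 by limma). Gata4, of the same list, had 866 to 923 in LNA Control and 770 to 788 in LNA Malat1. Its log2 fold change was -0.21 (adjusted p = 0.0079 by limma). For the rest of the 7 the limma adjusted p was above 0.05. Myh6, usually a defining marker of cardiomyocytes, lay between 0 and 7. The atrial genes Nppa and Sln were not analysed here.

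Among the thick filament and M-band genes, Myl2, Mybpc3, and Myom1 were higher in LNA Malat1, and no gene was lower at an adjusted p of 0.05 or less. The test was limma's on log2(normalized count + 1), for genes whose mean over the libraries reached 5. It took in 7 of the 10, and Myh6, Myh7, and Myl3 had lower means. A call needed an adjusted p of 0.05 or less together with a 1.5-fold difference. By this rule 2 of the 7 were upregulated, Myl2 and Mybpc3, where 8.0% of the 15650 genes tested were called higher, and 0 were downregulated, where 2.92% were called lower. At an unadjusted p under 0.05 the count of lower genes was also 0 (limma). Without the fold change minimum, 3 of the 7 were higher, against 14.3% of all genes tested, and 0 were lower, against 14.0%. The 3 genes that differed had means between 10 and 200, and of the 7072 genes in that range 12.8% were called higher and 17.8% were higher without the fold change minimum. The LNA Control and LNA Malat1 libraries did not overlap for 4 of the 7, Myl2, Mybpc3, Myom1, and Myl4, where 41.3% of all genes tested did not overlap. The median log2 fold change of the 7 was 0.41, beside 0.10 for genes with a mean between 10 and 200 and 0.02 for all genes tested. Myl2 is a gene the study itself named on these samples, so its call is not independent evidence of a direction. More cells that express a gene and more RNA per cell cannot be told apart in such bulk libraries.

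**Figure D1:**
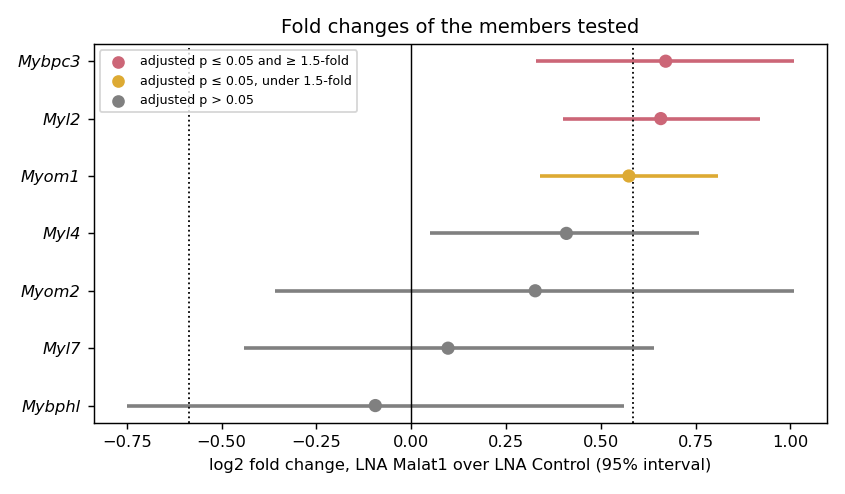
Log2 fold changes (horizontal axis, LNA Malat1 over LNA Control) of the 7 thick filament and M-band genes that were tested, as points with 95% intervals from limma over 6 libraries, and dotted lines at 1.5-fold in each direction. The intervals of Mybpc3, Myl2, Myom1, and Myl4 lie above 0, and that of Myom1 is centred just under the 1.5-fold line.

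The regulatory light chains come in a ventricular form, Myl2, and an atrial form, Myl7. Myl2 (mm10 chromosome 5, 122100951 to 122113472, plus strand) had 70, 63, and 60 normalized counts in the LNA Control libraries and 115, 100, and 92 in those of LNA Malat1. Every LNA Malat1 library was above every LNA Control library. Between the groups the mean moved from 64.3 ± 5.13 (SD, n = 3) to 101.8 ± 2.5 (SD, n = 2), so that Myl2 rose by a log2 fold change of 0.66 (SE 0.12, 95% interval 0.40 to 0.92, adjusted p = 0.00157 by limma), or 1.58-fold. Without LNA Malat1 replicate 1 the log2 fold change was 0.57 (adjusted p = 0.0159 by limma), which is under the 1.5-fold minimum. The exons of Ccdc63 on the opposite strand cover 60 bases of Myl2, 3.08% of its exonic length, and whether reads were counted by strand is not given in the sources used here. Myl7 (chromosome 11, 5896637 to 5898782, minus strand) had 24, 18, and 30 normalized counts in the LNA Control libraries and 32, 20, and 25 in those of LNA Malat1. The groups overlapped, with means of 24.0 ± 6.0 (SD, n = 3) and 24.25 ± 6.01 (SD, n = 2). The log2 fold change of Myl7 was 0.10 (SE 0.25, adjusted p = 0.805 by limma), with a 95% interval of -0.44 to 0.64. In this fit the interval holds a rise of 1.5-fold but not a decrease of that size. With quantile normalization the log2 fold change of Myl7 was -0.20 (SE 0.23), so a decrease of that size is not excluded.

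The atrial form was set against the ventricular form within each library, since a ratio of genes in a library does not depend on the library factor. The log2 ratio of Myl7 to Myl2, each with 1 added, was -1.51, -1.75, and -0.98 in the LNA Control libraries and -1.81, -2.27, and -1.84 in those of LNA Malat1. All 3 LNA Malat1 libraries lay below all 3 LNA Control libraries, though LNA Control replicate 2 and LNA Malat1 replicate 1 were close. Its mean moved from -1.41 ± 0.40 (SD, n = 3) to -2.05 ± 0.31 (SD, n = 2). Over all 6 libraries the difference was -0.56 (exact permutation test, two-sided, p = 0.1), and 0.1 is the smallest p that 3 against 3 libraries can give. Without LNA Control replicate 3, the library with the highest ratio, the difference was -0.34, and it was -0.63 when LNA Malat1 replicates 1 and 3 entered as their mean.

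The essential light chains are Myl4, the form of atrial and embryonic muscle, and Myl3, the form of ventricular and slow muscle. Myl4 (chromosome 11, 104550663 to 104595753, plus strand) had 30, 39, and 37 normalized counts in the LNA Control libraries and 49, 47, and 45 in those of LNA Malat1. The groups did not overlap, and the 95% interval of the log2 fold change of 0.41 ran from 0.05 to 0.76 (SE 0.16), but the adjusted p did not pass the threshold (adjusted p = 0.0799 by limma). Myl3 (chromosome 9, 110741861 to 110769798, plus strand) had 0, 0, and 1 normalized counts in the LNA Control libraries and 0, 2, and 3 in those of LNA Malat1. These values stand for 1 read in LNA Control and 5 in LNA Malat1, a ratio of 4.74 with a 95% interval of 0.530 to 224 (exact, counting error only), so that no difference was detectable at this depth. A count of 0 in a library allowed a normalized count of up to 2.59 to 3.26, depending on the library, and the highest value of Myl3 was 3. The log2 ratio of Myl4 to Myl3 was 4.95, 5.32, and 4.25 without silencing and 5.64, 4.0, and 3.52 with it. These ranges overlapped (difference -0.45, exact permutation test, two-sided, p = 0.6). Because Myl3 was near 0, size and sign of the difference depended on the 1 that was added, and adding 5 gave 0.07.

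**Figure D2:**
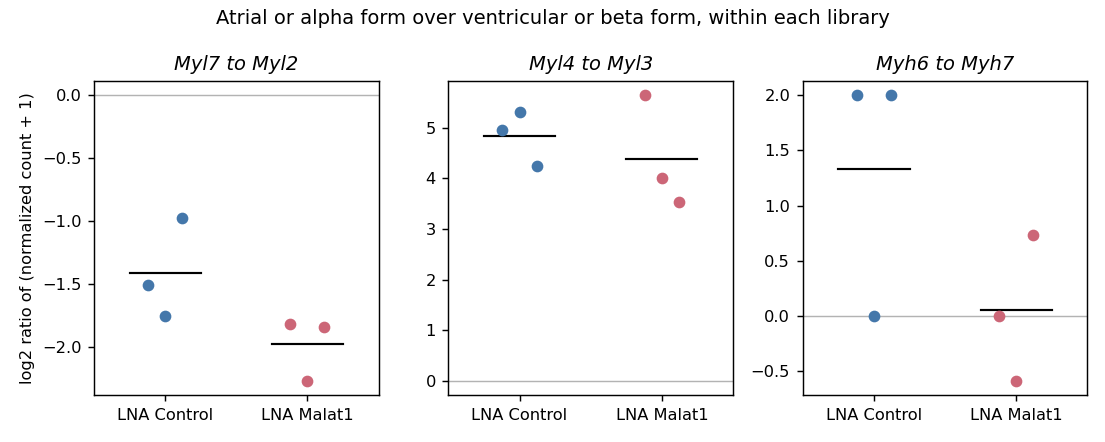
Log2 ratio (vertical axes) of Myl7 to Myl2, Myl4 to Myl3, and Myh6 to Myh7 within each library, each point 1 library and each bar the mean of 3. In the left panel the LNA Malat1 libraries, from -2.27 to -1.81, sit below the LNA Control libraries, from -1.75 to -0.98, and in the other panels the groups overlap.

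The cardiac heavy chains are Myh6, the alpha chain of atria and of the adult mouse ventricle, and Myh7, the beta chain of the fetal ventricle. They lie next to each other on the minus strand of chromosome 14, Myh6 at 54941921 to 54966927 and Myh7 at 54970684 to 54994626. Myh6 had 7, 0, and 7 normalized counts in the LNA Control libraries and 4, 1, and 4 in those of LNA Malat1, and the groups overlapped. Its recovered reads were 14 in LNA Control and 9 in LNA Malat1, a ratio of 0.609 with a 95% interval of 0.233 to 1.51. Myh7 had 1, 0, and 1 normalized counts in the LNA Control libraries and 4, 2, and 2 in those of LNA Malat1, and each LNA Malat1 library was above each LNA Control library. These were 2 reads against 8 (ratio 3.79, 95% interval 0.756 to 36.6), so that a difference was not detectable at this depth, and with no filter on low genes limma gave adjusted p = 0.117. The log2 ratio of Myh6 to Myh7 was 2.00, 0.00, and 2.00 without silencing and 0.00, -0.58, and 0.74 with it (difference -1.28, exact permutation test, two-sided, p = 0.3). That difference was -0.62 with 5 added in place of 1 and -1.95 without LNA Control replicate 2, where Myh6 and Myh7 were both at 0.

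Myh6 and Myh7 share stretches of identical sequence, which matters for their counts because reads aligning to several regions were left out of the counting. Of all windows of 75 bases in the annotated transcripts of Myh6, 13.7% also occur in transcripts of Myh7. Of 8953 Myh7 windows, 1221 (13.6%) occur in another gene. Of these, 947 occur in Myh6, and the next genes were Mhrt and Gm31251, on the opposite strand. Most of each gene could thus still be counted. The longest identical run has 245 bases and spans an exon junction. It lies in 2 exons of each gene, chr14:54948612-54948725 and chr14:54948327-54948457 for Myh6 and chr14:54975234-54975347 and chr14:54974947-54975077 for Myh7 (GRCm38, minus strand). It is shown as the longest part, not the only one, where the alpha and beta chains could not be told apart, and no base is in capitals.
Myh6 and Myh7: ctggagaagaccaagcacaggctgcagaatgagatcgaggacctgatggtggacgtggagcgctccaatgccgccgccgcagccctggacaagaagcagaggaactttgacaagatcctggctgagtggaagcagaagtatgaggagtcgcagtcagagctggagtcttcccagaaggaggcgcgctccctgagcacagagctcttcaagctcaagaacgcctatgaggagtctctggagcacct
No such window of Myl2, Myl7, Myl4, Mybpc3, or Myom2 occurs in another gene. Antisense transcripts of the locus, among them Mhrt with 484 bases (5.62%) of the exonic length of Myh7, overlap Myh7 on the opposite strand.

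Other heavy chains were far more abundant. Levels of different genes were compared per kb of the principal transcript. In LNA Control the mean was 363 normalized counts per kb for Myh9 and 330 for Myh10, both nonmuscle heavy chains, and 0.763 for Myh6 and 0.107 for Myh7. The sarcomeric heavy chains with a row, Myh3, Myh6, Myh7, and Myh7b, together gave 1.15 to 3.27 per kb in LNA Control and 3.58 to 4.41 in LNA Malat1. These sums rested on only 7 to 27 normalized counts per library. Nonmuscle Myh9, Myh10, and Myh14 together gave 696 to 764 per kb in LNA Control and 636 to 678 in LNA Malat1. Among light chains, the smooth and nonmuscle form Myl9 had 630 per kb and Myl1, the essential light chain of fast skeletal and developing muscle, had 340 in LNA Control. Both exceeded the 72.4 of Myl2, the highest of the cardiac forms. These comparison genes were picked after their values were seen.

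**Figure D3:**
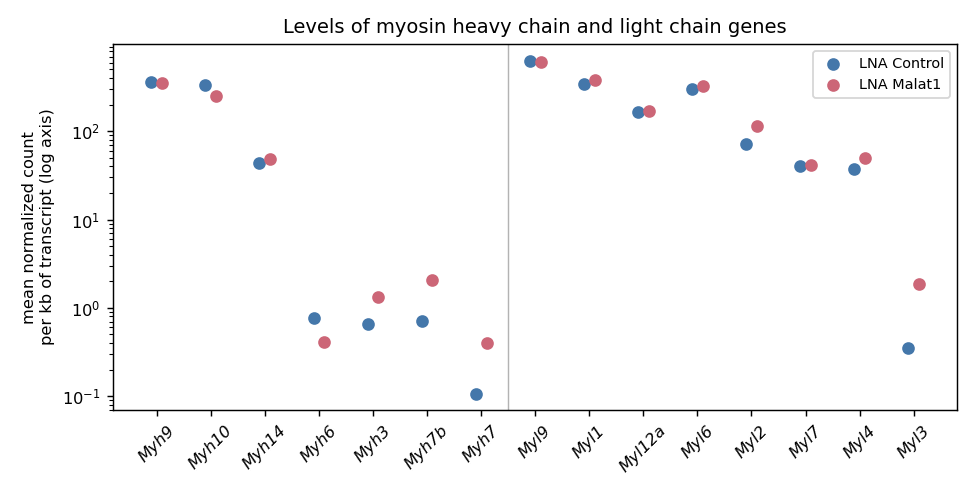
Mean normalized count per kb of the principal transcript (vertical log axis) of heavy chain genes, left of the grey line, and light chain genes, right of it, over 3 LNA Control libraries and over LNA Malat1 with replicates 1 and 3 as 1 sample (n = 2). The cardiac heavy chains Myh6 and Myh7 lie under 1 per kb, while the cardiac light chains Myl2, Myl7, and Myl4 lie between 37.5 and 114.5 per kb.

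Within the thick filament and M-band genes, the order of levels in LNA Control was Myl2 at 72.4 per kb (range over libraries 67.5 to 78.7), Myl7 at 40.7 (30.5 to 50.9), Myl4 at 37.5 (31.8 to 41.4), Myom1 at 24.7 (21.1 to 29.0), Mybphl at 14.4 (11.0 to 18.8), and Mybpc3 at 9.85 (8.65 to 11.5). Myl7 and Myl4 overlapped, as did Mybphl and Mybpc3, and the other neighbours among these 6 did not. Myom2 followed at 1.77 (1.38 to 2.37), ahead of Myh6, Myl3, and Myh7, whose ranges overlapped and reached 0. The order rested on the length used. Per kb of all annotated exonic bases, Myl2 had 33.0, below the 40.7 of Myl7, and Myl4 had 7.62.

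The myosin-binding genes are Mybpc3, the cardiac myosin-binding protein C that regulates cross-bridges in atria and ventricles, and Mybphl, a relative known from atrial muscle. Mybpc3 (chromosome 2, 91118144 to 91136516, plus strand) had 39, 48, and 36 normalized counts in the LNA Control libraries and 72, 67, and 58 in those of LNA Malat1. The lowest LNA Malat1 library was above the highest LNA Control library. From 41.0 ± 6.25 (SD, n = 3) the mean moved to 66.0 ± 1.41 (SD, n = 2), and Mybpc3 rose by a log2 fold change of 0.67 (SE 0.16, 95% interval 0.33 to 1.01, adjusted p = 0.00698 by limma), or 1.59-fold. Quantile normalization gave 0.54 (adjusted p = 0.0327 by limma), under the 1.5-fold minimum. Mybphl (chromosome 3, 108364911 to 108380057, plus strand) had 24, 17, and 14 normalized counts in the LNA Control libraries and 21, 11, and 20 in those of LNA Malat1. These overlapped, and the log2 fold change was -0.09 (SE 0.30, 95% interval -0.75 to 0.56, adjusted p = 0.844 by limma). The noncoding gene Gm12522 on the opposite strand shares 89 bases, 6.97% of the exonic length of Mybphl.

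RefSeq promoters on GRCm38.p6 were matched for 9 of the 10 genes, all but Myom2. The 250 bases before the start are shown for Mybpc3, which rose, and for the atrial light chains Myl7 and Myl4, which did not pass the test. For these genes the RefSeq start is also the start of the gene in the deposited table. The windows are chr2:91117894-91118143 (plus strand) for Mybpc3, chr11:5898783-5899032 (minus strand) for Myl7, and chr11:104550413-104550662 (plus strand) for Myl4. Capitals mark matches, on either strand, to TATAAA of the TATA box, to CATTCC of a TEAD site, to GATAA of a GATA site, to the MEF2 consensus, and to the CArG box.
Mybpc3: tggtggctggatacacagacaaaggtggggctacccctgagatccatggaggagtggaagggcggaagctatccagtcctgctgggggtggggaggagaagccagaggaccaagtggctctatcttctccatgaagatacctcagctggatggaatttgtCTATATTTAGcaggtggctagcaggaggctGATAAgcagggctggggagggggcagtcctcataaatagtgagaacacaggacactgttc
Myl7: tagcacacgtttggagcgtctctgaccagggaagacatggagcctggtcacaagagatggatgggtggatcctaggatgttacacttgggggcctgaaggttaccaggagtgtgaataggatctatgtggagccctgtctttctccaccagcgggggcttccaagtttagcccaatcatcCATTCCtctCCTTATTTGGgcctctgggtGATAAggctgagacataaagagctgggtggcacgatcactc
Myl4: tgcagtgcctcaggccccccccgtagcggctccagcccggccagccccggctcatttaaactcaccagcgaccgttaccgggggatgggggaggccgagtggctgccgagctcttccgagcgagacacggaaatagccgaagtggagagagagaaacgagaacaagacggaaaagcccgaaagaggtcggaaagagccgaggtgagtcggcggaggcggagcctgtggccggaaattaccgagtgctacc
The Mybpc3 window held the MEF2 consensus, the site of a muscle transcription factor family, 90 to 81 bases before the start and GATAA 60 to 56 bases before it. The Myl7 window held CATTCC at 70 to 65, a CArG box, the site of serum response factor, at 61 to 52, and GATAA at 41 to 37 bases before the start. In the Myl4 window these letters were not found. Of 32851 RefSeq promoter windows of the same length, 2.92% held the MEF2 consensus, 1.47% a CArG box, 12.6% CATTCC, 12.4% TATAAA, and 22.6% GATAA, and no printed match overlaps another. The RefSeq windows of Myl2, Myl3, Myh6, and Myom1 belong to starts other than the gene start in the table and are not printed.

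The M-band genes are Myom1, the myomesin of all striated muscle that cross-links myosin filaments, and Myom2, a myomesin of adult and fast muscle. Myom1 (chromosome 17, 71002633 to 71126856, plus strand) had 119, 136, and 164 normalized counts in the LNA Control libraries and 205, 193, and 223 in those of LNA Malat1. All LNA Malat1 libraries were above all LNA Control libraries, of which replicate 3 was the highest. The mean moved from 139.7 ± 22.7 (SD, n = 3) to 203.5 ± 14.9 (SD, n = 2). Myom1 rose by a log2 fold change of 0.57 (SE 0.11, 95% interval 0.34 to 0.81, adjusted p = 0.00182 by limma), or 1.49-fold, just under the minimum for a call. Without LNA Control replicate 3 it was 0.70 and without LNA Malat1 replicate 2 it was 0.62, and it was called in both. Myl12a on the opposite strand shares 207 bases, 1.98% of the exonic length of Myom1, and had between 312 and 336 normalized counts in every library, with overlapping groups. Myom2 (chromosome 8, 15057653 to 15133541, plus strand) had 8, 12, and 7 normalized counts in the LNA Control libraries and 11, 10, and 13 in those of LNA Malat1. These overlapped, with a log2 fold change of 0.33 (SE 0.32, 95% interval -0.36 to 1.01, adjusted p = 0.475 by limma).

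**Figure D4:**
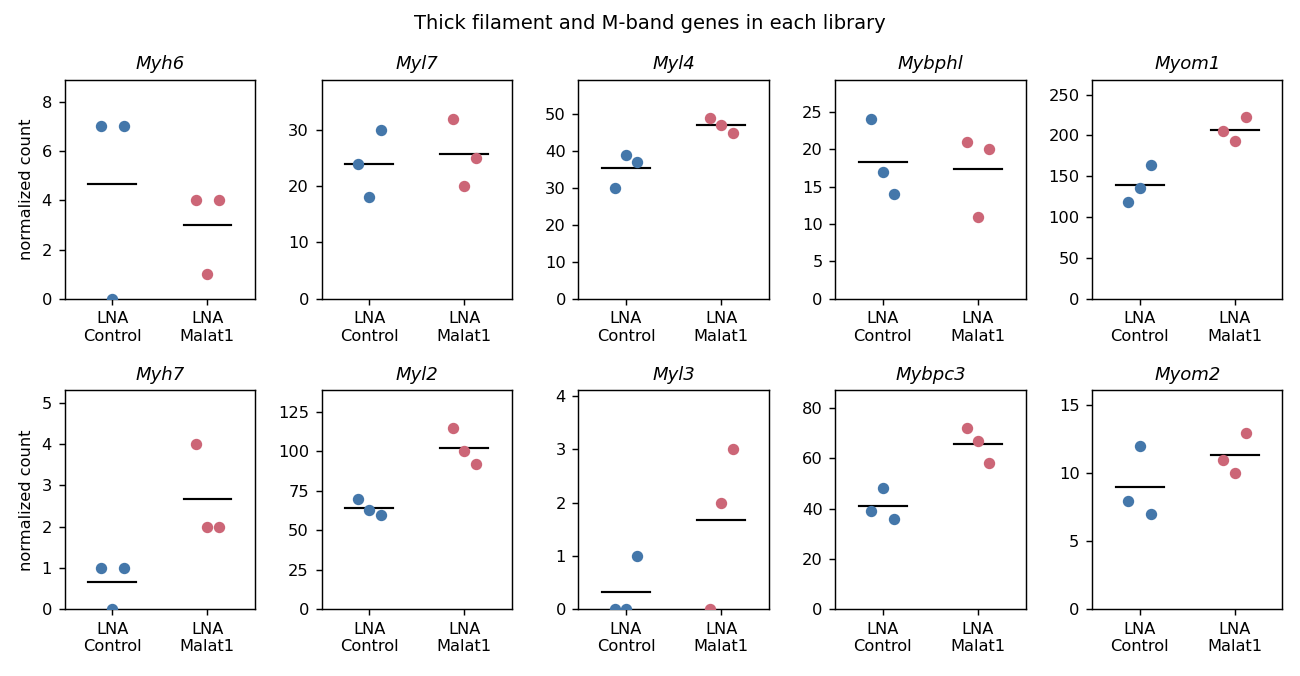
Normalized counts (vertical axes, each panel on its own scale from 0) of the 10 thick filament and M-band genes in each of the 3 LNA Control and 3 LNA Malat1 libraries, with bars at the mean of 3. The groups are apart for Myl2, Mybpc3, Myom1, Myl4, and Myh7, the last with 0 to 4 normalized counts, and overlap for the other 5.

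Among the chamber-specific forms, Myl2 alone passed the test. Of the forms named for the ventricle, Myl2 rose and Myl3 and Myh7 were too low to test. Of the atrial forms, Myl4, Myl7, and Mybphl had log2 fold changes of 0.41, 0.10, and -0.09, none of which passed the test, and Myh6, the alpha chain, was too low. By comparison, Mybpc3 and Myom1, which also rose, are used in both chambers. Outside the sarcomere, 6 of 10 listed atrial markers and 4 of 6 ventricular markers had a row. Of 5 atrial markers tested, none was called, and the median log2 fold change was -0.16. Without the fold change minimum 2 of the 5 were lower, against 14.0% of all genes tested. These were Tbx5, a cardiac transcription factor listed here as atrial, and Dkk3. Both were at -0.22 on the log2 scale, with adjusted p of 0.045 and 0.0302 by limma. Of 4 ventricular markers tested, 1 was called, Hey2, a repressor downstream of Notch, which had 16, 21, and 18 normalized counts in the LNA Control libraries and 51, 53, and 47 in those of LNA Malat1 (log2 fold change 1.42, SE 0.19, adjusted p = 0.000133 by limma). Irx3 (0.56) and Irx5 (0.48), homeobox factors of the ventricle, were higher and Pln, the inhibitor of the calcium pump, was lower (-0.25) without the minimum, and the median was 0.52. Of all genes with a mean between 10 and 200, the range of Hey2, Irx3, and Irx5, 12.8% were called higher. In that range 17.8% were higher without the minimum. Hey2 is a gene the study chose on these samples, so it is not independent evidence of a direction.

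The other genes of the thick filament and M-band showed 3 calls, all of them higher and all in genes with low values in LNA Control, in 1 of 2 other sarcomeric heavy chains and 2 of 10 M-band partners tested. Over all genes tested 8.0% were called higher, and 12.8% in the range of means that holds Myom3. Myom3, the third myomesin, had 5, 10, and 13 normalized counts in the LNA Control libraries and 45, 44, and 39 in those of LNA Malat1. Every LNA Malat1 library had at least 39, and Myom3 rose by a log2 fold change of 2.16 (SE 0.30, adjusted p = 0.000196 by limma). Ckm, the muscle creatine kinase that binds at the M-band, had 3, 0, and 1 normalized counts in the LNA Control libraries and 11, 11, and 9 in those of LNA Malat1, again without overlap, and rose by 2.50 (SE 0.53, adjusted p = 0.00403 by limma). Myh7b, a slow-type sarcomeric heavy chain, had 4, 3, and 6 normalized counts in the LNA Control libraries and 10, 14, and 13 in those of LNA Malat1 and rose by 1.35 (SE 0.36, adjusted p = 0.0144 by limma). Ckm and Myh7b had means under 5 in LNA Control and entered the test only through their LNA Malat1 libraries, so their calls are a description of these values. Among the 1763 genes with a mean of 5 to below 10, the range of Ckm and Myh7b, 16.1% were called higher and the median log2 fold change was 0.43.

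Around these genes most of the apparatus showed no call. Of 10 M-band partners tested, 2 were called, Myom3 and Ckm, none was lower, and the median log2 fold change was 0.05. Of 7 other myosin light chains tested, none passed the test in either direction (median -0.06), although Myl1 and Myl9 were among the well-counted genes. The 4 nonmuscle and smooth muscle heavy chains held no call, and Myh10, nonmuscle myosin heavy chain IIB, fell by 0.39 (log2, SE 0.06, adjusted p = 0.000362 by limma), a change under 1.5-fold, from 2450 to 2709 in LNA Control to 1897 to 2002 in LNA Malat1. Of 12 chaperones, kinases, and phosphatase subunits of myosin tested, none was called. The last of the list, Smyd2, a lysine methyltransferase, was at 0 in all LNA Control libraries, where a count of 0 allows up to 3.26, and at 4, 10, and 5 in LNA Malat1. Its mean was too low for the test, and with no filter the limma adjusted p was 0.00224. Without the filter 1570 of 21230 genes were called higher. Counts of Smyd2 came from LNA Malat1 alone, so its adjusted p is only a description of these values. In that list Mylk3, the cardiac kinase of the regulatory light chain, was higher by 0.27 (adjusted p = 0.00853 by limma) and Ppp1r12b, a subunit of the myosin phosphatase, was lower by -0.38 (adjusted p = 0.000132 by limma), and the median was -0.04. Among other myosin-binding genes, Mybpc2, the fast skeletal myosin-binding protein C, had 2, 3, and 3 normalized counts in the LNA Control libraries and 9, 7, and 4 in those of LNA Malat1 and Mybph had 0 to 4, both under the mean required for the test.

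**Figure D5:**
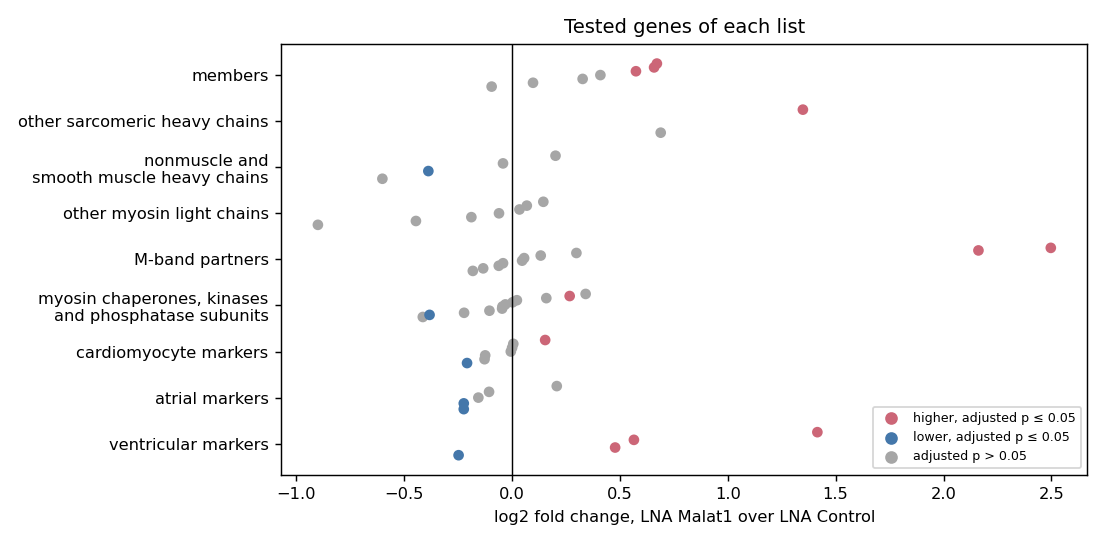
Log2 fold changes (horizontal axis, LNA Malat1 over LNA Control) of the tested genes of each list, each point 1 gene, red or blue at a limma adjusted p of at most 0.05 over 6 libraries. The 3 red points of the thick filament and M-band genes ("members") lie between 0.57 and 0.67, and in the other lists plotted here the points beyond 1 are Ckm, Myom3, Myh7b, and Hey2.

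Markers of other cell types were read beside these values. The 3 skeletal muscle markers with a row summed to 136 to 143 per library in LNA Control and 185 to 193 in LNA Malat1. Of these only Tnnt3, the fast troponin T, was called higher (log2 fold change 1.66, adjusted p = 9.95e-06 by limma). Actn3 (-0.07) and Tnni2 (0.19) did not pass the test (adjusted p of 0.665 and 0.451 by limma). Tnnt3 is one of the genes the study chose on these samples. The myogenic factors Myod1, Myog, Myf5, and Myf6 were not analysed here. The 2 macrophage markers with a row, Cd68 and Csf1r, were both called higher and summed to 32 to 36 and 54 to 81, while Ptprc and Adgre1 were not analysed here. Of all genes with a mean between 10 and 200, the range of Tnnt3, Cd68, and Csf1r, 12.8% were called higher. The 5 smooth muscle markers summed to 1778 to 1977 in LNA Control and 1919 to 2044 in LNA Malat1, and these ranges overlapped. Cnn1 and Smtn were higher without the fold change minimum, as were 14.3% of all genes tested. Tagln (0.15), Acta2 (-0.05), and Myh11 (-0.60) did not pass the test (adjusted p of 0.0974, 0.638, and 0.153 by limma). For Myh11 the LNA Malat1 libraries were all below the LNA Control libraries. Of 5 fibroblast markers with a row, which summed to 5304 to 5911 and 4683 to 4817, Col3a1 was lower without the minimum and Col1a2 was at 0 or 1 in every library. The 2 endothelial markers with a row summed to 19 to 28 and 32 to 35, and neither passed the test. The part of these markers in the rise of Myl2, Mybpc3, and Myom1 was not tested.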

How the data were processed

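RNA of HL-1 cells was sequenced in 3 LNA Control and 3 LNA Malat1 libraries prepared with a stranded total RNA kit. Nothing states that replicates are separate cultures, so p-values measure the spread between libraries, which may be technical. By the study's methods and processing notes, the authors trimmed reads with Trimmomatic 0.39, aligned them to mm10 with STAR 2.7.7a, counted reads on exons with featureCounts 1.6.5 without reads on several genes or regions, and normalized them with DESeq2 1.30.0. The deposited values are a score, not raw counts, namely normalized counts rounded to whole numbers, so tests for counts were not used. The table's other columns are gene annotation.

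Genes with a mean of at least 5 (15650 of 21269) entered the two-sided test of limma 3.58.1 under R 4.3.3 (eBayes with its trend option) on log2(normalized count + 1), a scale that understates the change of low genes, with Benjamini-Hochberg adjustment over all genes tested. The thresholds, an adjusted p of 0.05 and a 1.5-fold change, are those of the study. The fit was tested on simulated data. Ratios were compared with exact permutation tests over all 20 regroupings (scipy 1.17.1). Library factors were recovered from the steps of the rounded values, and that of LNA Malat1 replicate 2 is less certain (1.0058 to 1.0174). Intervals of reads cover counting error only, and a count of 0 was read as up to 3 reads. Counting LNA Malat1 replicates 1 and 3 as 1 sample is a cautious choice, since in genes with at least 1600 reads they did differ (chi-square of 1.09 per gene, p = 0.0031).

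Positions are those of the table (mm10, counted from 1) and are the same in GENCODE M21, which gave transcript lengths and overlaps. The genes named follow a rule: the 10 genes themselves, called genes of the lists, and Malat1. Which other genes to name was decided with their values in view. The 10 genes and the lists were chosen with earlier results of these data known, so no list is independent support. Alternatives were a replicate block, a pseudocount of 0.1 or 5, quantile normalization, median-of-ratios factors, equal library totals, a minimum mean of 50 or none, a 2-fold minimum, LNA Malat1 replicates 1 and 3 as 1 sample, and leaving out each library.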

Additional observations from a re-analysis of the deposited data

How the results depend on the processing

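Myl2, Mybpc3, and Myom1 stayed higher at a limma adjusted p of at most 0.05 in all 15 alternatives run for each, with highest values of 0.0159, 0.0468, and 0.0192. Leaving out single libraries, 1 to 3 genes were called higher, and the count was 1 without LNA Malat1 replicate 1, where Myl2 fell under the 1.5-fold minimum. At a 2-fold minimum 0 were called. Quantile normalization put Mybpc3 under the minimum and Myom1 (0.59) over it. Myom1 also passed with equal library totals (0.61). The log2 ratio of Myl4 to Myl3 moved from -0.45 to -1.54 with a pseudocount of 0.1 and to 0.07 with 5, and ranged from -1.08 to -0.02 with single libraries left out. Some uncalled genes changed sign: Myl7 was at -0.20 and Myom2 at -0.021 with quantile normalization, Myl7 ranged from -0.087 to 0.27 with single libraries left out, and Mybphl from -0.26 to 0.19. The replicate block changed no call (2 genes called higher, 0 lower). Same-numbered libraries correlated weakly, at 0.086, 0.182, and 0.083 over 10490 genes, and pairs with different numbers at -0.189 to 0.046. Every library correlated best with its own number, and the sources used here do not say whether the numbers mark pairs. Over all genes, 748 were called higher and 718 lower with quantile normalization, against 1252 and 457, and 317 and 349 with a mean of at least 50, and 810 to 1582 were called higher with single libraries left out. With LNA Malat1 replicates 1 and 3 as 1 sample, 831 were higher, and Myl2, Mybpc3, and Myom1 had limma adjusted p of 0.00643, 0.0222, and 0.0167. Depth limits Myh6, Myh7, and Myl3, where differences of a few reads cannot be resolved.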
